A study of Mus musculus with 12 samples.

Results

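This account covers 9 genes of natural killer (NK) receptors and NK-type granule proteins, Klrd1, Klrc1, Klrc2, Klre1, Klrk1, Klrg1, Klrb1c, Nkg7 and Ctsw, in mouse T cells cultured with or without azacitidine (AzaC). They were taken by name from the 22180 genes that had an array row annotated with exactly 1 symbol, and each of the 9 had 1 such row. AzaC is a cytidine analogue that is incorporated into nucleic acids and inhibits DNA methyltransferases.

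RNA was measured on 12 Affymetrix arrays, with 3 arrays in each of 4 groups. The groups were natural regulatory T cells (nTregs) with AzaC, nTregs with phosphate-buffered saline (PBS), CD4 effector T cells (CD4 cells) with AzaC, and CD4 cells with PBS. Every group came from a joint culture of 1 part nTregs and 10 parts effector T cells, activated for 2 days with anti-CD3/CD28 beads and 500 U/mL interleukin-2 and then kept for 2 days with 1 µM AzaC or with PBS, so the PBS cells were activated cells too. The nTregs were sorted as CD4+ DsRed- Foxp3GFP+ and the CD4 cells as CD4+ DsRed+ Foxp3GFP-. The labels give 1 strain for all samples, a cross of B6.Foxp3GFP with B6.Cg-Tg(CAG-DsRed*MST)1Nagy/J, although the design text describes the nTregs as spleen cells of the B6.Foxp3GFP strain and takes only the effector T cells from a cross with the DsRed strain, in which a CAG promoter drives DsRed. The Foxp3 reporter was used to sort, so Foxp3 itself separates the populations by choice. Nothing in the labels ties the 3 arrays of a group to separate mice or cultures, and p-values then measure the spread between these samples, which may be technical.

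NK cells and cytotoxic T cells carry receptors of the killer cell lectin-like family that raise or lower their readiness to kill. Many of these receptors are encoded together in the NK gene complex on mouse chromosome 6, and activated T cells can acquire some of them. CD94 (Klrd1) pairs with NKG2A (Klrc1), which inhibits, or with NKG2C (Klrc2), which activates, and both pairs read the nonclassical MHC molecule Qa-1 (H2-T23). NKG2D (Klrk1) activates after binding stress-induced ligands, Klrg1 inhibits after binding cadherins, and NK1.1 (Klrb1c) activates through the adaptor Fcer1g. Nkg7 and cathepsin W (Ctsw) belong to the granule machinery of cytotoxic lymphocytes.

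All values below are RMA signals on the log2 scale as the authors deposited them, so a difference of 1 is a doubling. A gene was called changed where limma's test over all 12 arrays gave a Benjamini-Hochberg adjusted p under 0.05 over the 22180 genes. Array medians lay between 6.67 and 6.80. Array nTreg PBS 1 stood apart, since its mean correlation with the others was 0.972, while the next lowest, CD4 PBS 3, had 0.979 and the remaining arrays had 0.983 to 0.987. The 4 measured markers of all T cells averaged 12.28 to 12.63 per array. Foxp3 averaged 12.69 in nTregs with AzaC and 12.34 in nTregs with PBS, against 9.62 in CD4 cells with AzaC and 8.05 in CD4 cells with PBS. The table holds no detection calls, and the fifth percentile of an array's signals lay between 3.94 and 4.19. Klrc2, with 3.81 to 4.71 over the 12 arrays, lay next to that level, and Klrk1, with 4.35 to 5.35, lay not far above it.

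Of the 9 genes, 5 passed the test in at least 1 of 5 comparisons and 4 (Klrc1, Klrc2, Klre1 and Klrb1c) passed in none. Single comparisons called 0.203% to 8.01% of all genes. The share of all genes called in at least 1 of the 5 was not counted, so the 5 genes have no such share beside them. With AzaC, Nkg7 was higher in both populations, Klrg1 and Ctsw were higher in nTregs, and Klrd1 was lower in CD4 cells. Without the drug, Klrd1 and Ctsw were lower and Klrg1 higher in nTregs than in CD4 cells.

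**Figure D1:**
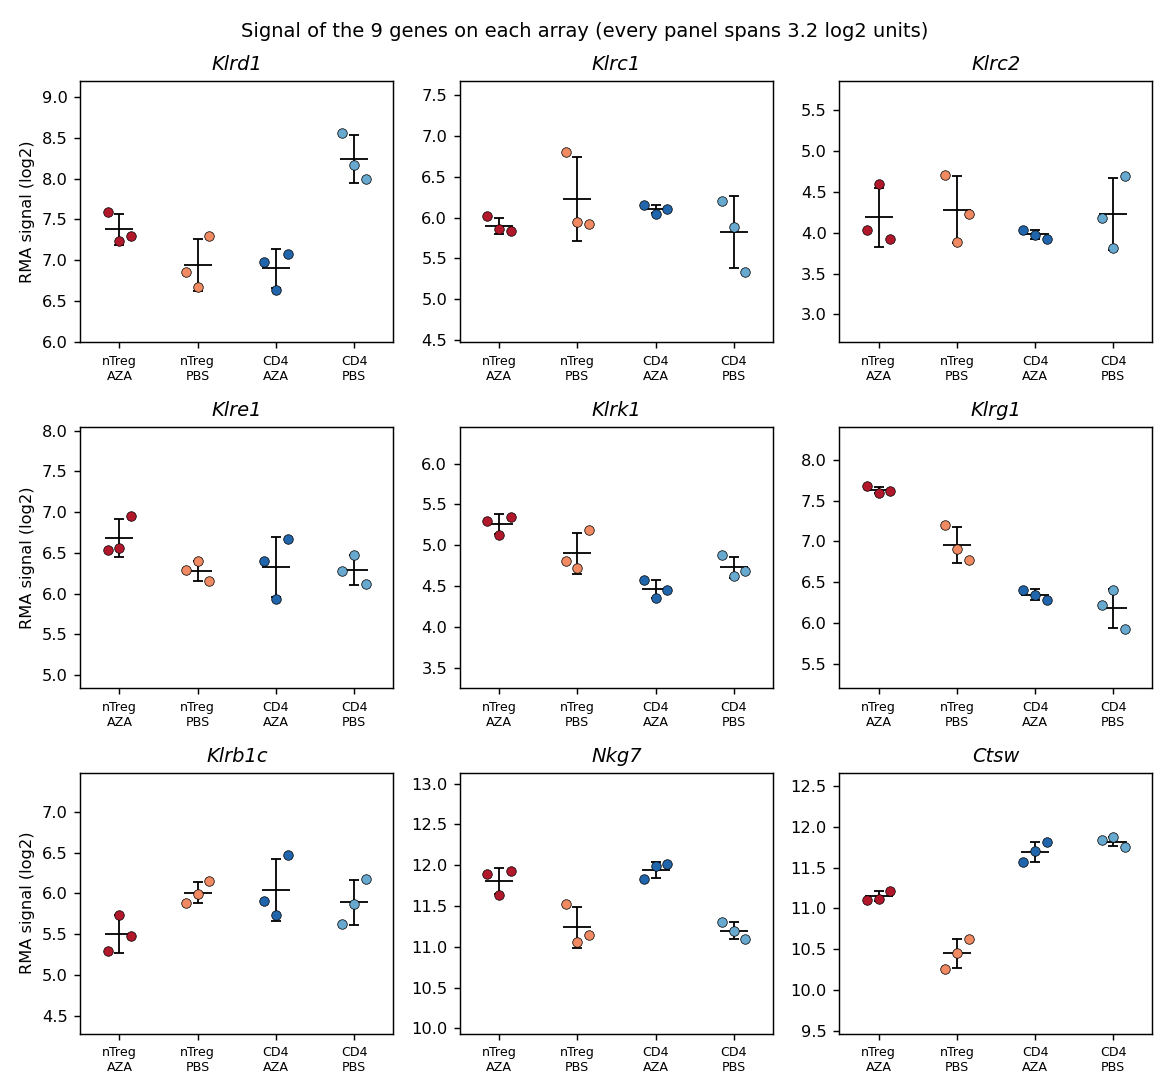
RMA signal (log2, vertical axis) of each of the 9 genes on the 12 arrays, by group, with nTregs left of CD4 cells and AzaC left of PBS. Points are arrays, horizontal lines are group means and bars are the SD (n = 3 arrays). Klrd1 stands at 8.00 to 8.56 in CD4 cells with PBS and at 6.63 to 7.59 on the other 9 arrays, and every panel spans the same number of log2 units.

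Klrd1, which encodes the CD94 chain shared by the NKG2 heterodimers, was lower in CD4 cells with AzaC. Its signal was 6.98, 6.63 and 7.08 on the 3 arrays of CD4 cells with AzaC, against 8.56, 8.16 and 8.00 in CD4 cells with PBS. The groups did not overlap, and the 3 CD4 PBS arrays were the highest of the whole series for this gene. The difference was -1.35 (SE 0.18, 95% interval -1.74 to -0.95, n = 3 arrays each, limma adjusted p = 0.00161), which is a level 2.54-fold lower with AzaC. In nTregs, Klrd1 had 7.59, 7.24 and 7.29 with AzaC, against 6.86, 6.67 and 7.29 with PBS. These groups met at their edges, and the difference of 0.44 (SE 0.18) did not pass (limma adjusted p = 0.25). The effect of AzaC in nTregs minus that in CD4 cells was 1.78 (SE 0.26, 95% interval 1.23 to 2.34, limma adjusted p = 0.0178). The Klrd1 difference between the effects lost its call without array CD4 AZA 1 (1.82, adjusted p = 0.0522) and without nTreg AZA 1 (1.67, adjusted p = 0.0539), at a nearly unchanged size. Klrd1 was the only 1 of the 9 genes called in that comparison, where 0.203% of all genes were called (0.144% higher and 0.0586% lower).

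The populations also differed in Klrd1 in the cultures without AzaC. Under PBS, Klrd1 was lower in nTregs than in CD4 cells by a log2 difference of -1.30 (SE 0.18, limma adjusted p = 0.000514). With AzaC the difference was 0.48 (SE 0.18) and did not pass (adjusted p = 0.149). The comparisons of AzaC with PBS in CD4 cells and of nTregs with CD4 cells under PBS use the same 3 CD4 PBS arrays, so their Klrd1 values are not independent of each other. In bulk samples such as these, fewer cells carrying a transcript and less transcript per cell cannot be told apart.

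The chains that pair with CD94 did not pass in any comparison. Klrc1 (NKG2A) had 6.02, 5.86 and 5.84 in nTregs with AzaC, against 6.81, 5.95 and 5.92 in nTregs with PBS. Its highest value lay on nTreg PBS 1, the array that stood apart. In CD4 cells Klrc1 had 6.15, 6.05 and 6.11 with AzaC, against 6.21, 5.89 and 5.34 with PBS, and the AzaC values fell inside the range of the PBS values. The difference in CD4 cells was 0.29 (95% interval -0.20 to 0.78). Klrc1 lay below the array medians of 6.67 to 6.80 on all arrays of CD4 cells. Without detection calls, a fall of its transcript may not show in so low a signal. Klrc2 (NKG2C) had 4.03, 4.60 and 3.93 in nTregs with AzaC, against 4.71, 3.89 and 4.23 with PBS, and 4.04, 3.97 and 3.93 in CD4 cells with AzaC, against 4.18, 3.81 and 4.69 with PBS. All 4 groups of Klrc2 overlapped near the bottom of the arrays' range. Klrc3 (NKG2E), a further partner of CD94, differed by 0.32 in nTregs (adjusted p = 0.253) and by 0.07 in CD4 cells (adjusted p = 0.831), and its signal lay below the fifth percentile of the arrays (3.94 to 4.19) on all 12 arrays. Over the 12 arrays, Pearson's r with Klrd1 was -0.32 for Klrc1 and 0.08 for Klrc2. These correlations share the 4 group means and are given as a description.

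Klre1 (NKG2I in the mouse) encodes a receptor that pairs with Klri1 or Klri2. Klre1 had 6.54, 6.56 and 6.95 in nTregs with AzaC, against 6.29, 6.40 and 6.15 in nTregs with PBS. All AzaC values were above all PBS values in nTregs, but the difference of 0.40 (SE 0.17) did not pass (limma adjusted p = 0.26). In CD4 cells Klre1 had 6.40, 5.94 and 6.67 with AzaC, against 6.28, 6.47 and 6.12 with PBS, and the groups overlapped. Its partner chains differed by -0.14 (Klri1) and -0.07 (Klri2) in nTregs and by 0.06 and 0.16 in CD4 cells, with no call. The ligand H2-T23 of the CD94 pairs differed by 0.18 (adjusted p = 0.546) in nTregs and by -0.27 (adjusted p = 0.391) in CD4 cells.

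Klrk1 (NKG2D), the activating receptor for stress-induced ligands, separated the populations with AzaC. Its signal was 5.30, 5.12 and 5.35 in nTregs with AzaC, against 4.57, 4.35 and 4.45 in CD4 cells with AzaC. The groups did not overlap, and the difference was 0.80 (SE 0.13, 95% interval 0.52 to 1.09, limma adjusted p = 0.00157). Under PBS, Klrk1 had 4.80, 4.72 and 5.19 in nTregs, against 4.88, 4.62 and 4.68 in CD4 cells, with overlap and a difference of 0.17 (adjusted p = 0.456). Neither AzaC effect passed on its own, at 0.36 (adjusted p = 0.192) in nTregs and -0.27 (adjusted p = 0.348) in CD4 cells. The effect in nTregs minus that in CD4 cells was 0.63 (SE 0.19) and did not pass (adjusted p = 0.181). Hcst, the adaptor DAP10 through which NKG2D signals, averaged 10.95 ± 0.07 in nTregs with AzaC, against 11.60 ± 0.37 in nTregs with PBS (SD, n = 3 arrays each). Hcst differed by -0.65 (adjusted p = 0.0578) in nTregs and by -0.42 (adjusted p = 0.239) in CD4 cells, so neither passed.

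Klrb1c (NK1.1), an activating receptor used to mark NK cells in the B6 strain, had 5.29, 5.74 and 5.48 in nTregs with AzaC, against 5.88, 5.99 and 6.15 in nTregs with PBS. The AzaC values were all below the PBS values, but the difference of -0.50 (SE 0.19) did not pass (limma adjusted p = 0.201). In CD4 cells Klrb1c had 5.91, 5.74 and 6.47 with AzaC, against 5.62, 5.87 and 6.18 with PBS, and these overlapped. Fcer1g, the adaptor chain of NK1.1, was higher in nTregs with AzaC at 7.37, 7.30 and 7.37, against 6.95, 6.74 and 6.51 with PBS. The Fcer1g difference of 0.62 (SE 0.14, adjusted p = 0.0336) lost its call without nTreg PBS 2 (0.0644), nTreg PBS 3 (0.0872) or any of nTreg AZA 1 (0.114), nTreg AZA 2 (0.0998) and nTreg AZA 3 (0.124). Fcer1g differed by 0.05 in CD4 cells (adjusted p = 0.882).

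Klrg1, the inhibitory receptor for cadherins found on differentiated effector cells and on a share of Tregs, was higher in nTregs than in CD4 cells in both conditions. Klrg1 had 7.20, 6.91 and 6.77 in nTregs with PBS, against 6.22, 6.40 and 5.93 in CD4 cells with PBS. With AzaC it had 7.68, 7.60 and 7.62 in nTregs, against 6.41, 6.35 and 6.28 in CD4 cells. No nTreg value fell among the CD4 values in either condition. The difference was 0.78 (SE 0.13, limma adjusted p = 0.00214) under PBS and 1.28 (SE 0.13, adjusted p = 2.9e-05) with AzaC, a 1.72-fold and a 2.44-fold higher level in nTregs. Klrg1 is thus the 1 receptor of the 9 genes with the same call in both population comparisons.

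Within nTregs, Klrg1 was also higher with AzaC than with PBS, by 0.67 (SE 0.13, limma adjusted p = 0.0185), and the 3 AzaC arrays had an SD of 0.04. That call was lost without nTreg PBS 3 (0.57, adjusted p = 0.0593), nTreg AZA 1 (0.65, adjusted p = 0.0775), nTreg AZA 2 (0.69, adjusted p = 0.0663) or nTreg AZA 3 (0.68, adjusted p = 0.0771), and without nTreg PBS 1 it was 0.79 (adjusted p = 0.00521). In CD4 cells Klrg1 differed by 0.16 (adjusted p = 0.572). The difference between the effects was 0.50 (SE 0.19) and did not pass (adjusted p = 0.223), so a Klrg1 response particular to nTregs was not shown. Cdh1, E-cadherin and a ligand of Klrg1, had a log2 difference of 0.59 in CD4 cells with AzaC (adjusted p = 0.0417). The mean over its array rows in place of the brightest row gave no call (adjusted p = 0.162), and neither did the fits without any 1 array other than CD4 PBS 3, nTreg PBS 1 or nTreg PBS 2 (adjusted p = 0.0544 to 0.144).

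**Figure D2:**
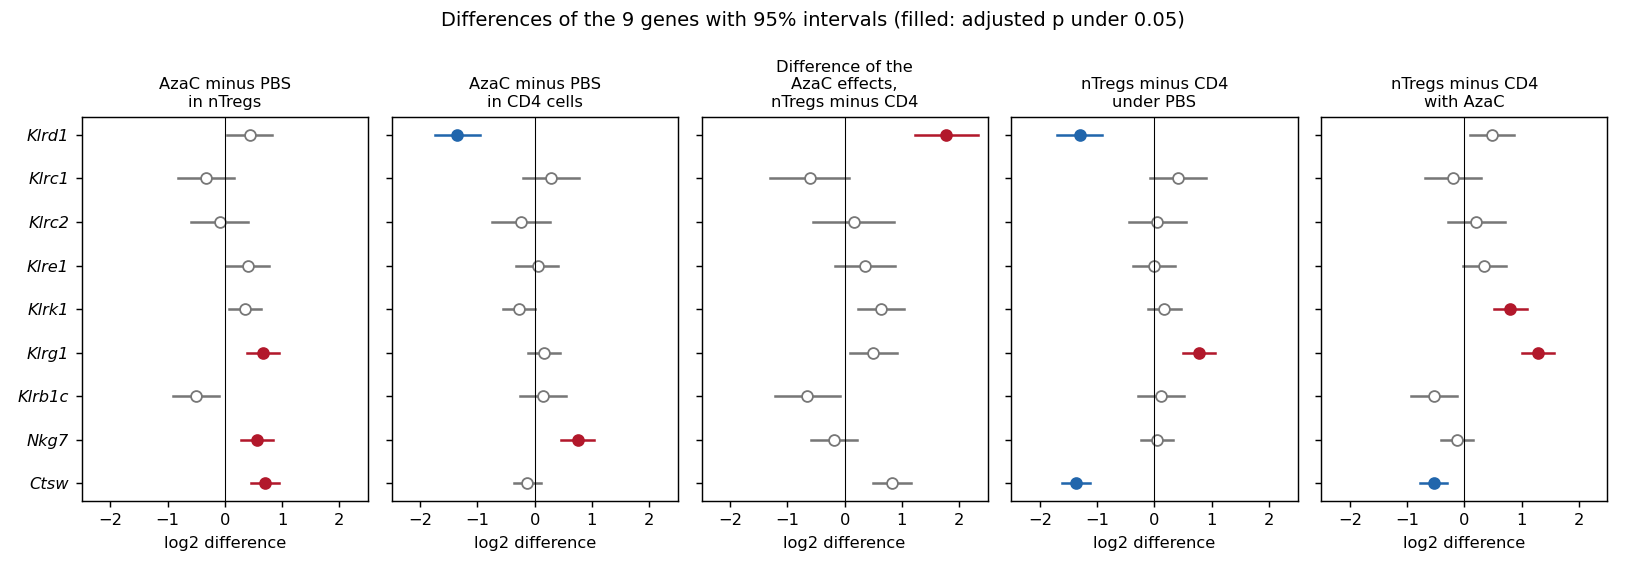
Log2 difference (horizontal axis) of each of the 9 genes in the 5 comparisons, with 95% intervals from limma (3 arrays a group). Filled points have an adjusted p under 0.05. Klrd1 is the only filled point among the differences between the AzaC effects, at 1.78, and Klrg1 is filled in both population comparisons, at 0.78 and 1.28.

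Nkg7, a membrane protein of lytic granules needed for their release, was higher with AzaC in both populations. In nTregs it had 11.89, 11.63 and 11.93 with AzaC, against 11.53, 11.06 and 11.14 with PBS. In CD4 cells it had 11.83, 11.99 and 12.01 with AzaC, against 11.30, 11.20 and 11.09 with PBS. All 6 AzaC arrays were above all 6 PBS arrays, while the populations overlapped within each condition. The difference was 0.57 (SE 0.13, limma adjusted p = 0.0424) in nTregs and 0.75 (SE 0.13, adjusted p = 0.0101) in CD4 cells, and the 2 effects differed by -0.18 (95% interval -0.58 to 0.22, adjusted p = 0.621).

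The Nkg7 call in nTregs stood close to the threshold. It was lost, with adjusted p-values between 0.0537 and 0.177, when any 1 array other than nTreg PBS 1 or CD4 PBS 3 was left out, with 0.177 without nTreg AZA 3 and 0.0537 without CD4 AZA 1. Without nTreg PBS 1 it was 0.71 (adjusted p = 0.00592). The call in CD4 cells was lost without CD4 AZA 3 (0.71, adjusted p = 0.0559).

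Ctsw (cathepsin W, a cysteine protease of NK cells and cytotoxic T cells) was lower in nTregs than in CD4 cells in both conditions, and higher in nTregs with AzaC than with PBS. Ctsw had 10.26, 10.45 and 10.63 in nTregs with PBS, against 11.84, 11.87 and 11.75 in CD4 cells with PBS. The difference under PBS was -1.37 (SE 0.11, limma adjusted p = 2.68e-06), a level 2.59-fold lower in nTregs. With AzaC it had 11.11, 11.12 and 11.22 in nTregs, against 11.57, 11.70 and 11.81 in CD4 cells, and the difference was -0.54 (SE 0.11, adjusted p = 0.00751). The nTreg values thus stood below all CD4 values in both conditions, with a smaller gap with AzaC.

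Inside nTregs, Ctsw was higher with AzaC than with PBS by 0.70 (SE 0.11, limma adjusted p = 0.00417). In CD4 cells Ctsw differed by -0.13 (95% interval -0.36 to 0.11, adjusted p = 0.606). The effect in nTregs minus that in CD4 cells was 0.83 (SE 0.16) and just missed the threshold (adjusted p = 0.0517). The same difference passed under 5 of 18 alternatives, among them without nTreg PBS 3 (limma adjusted p = 0.0335). Under the other 13 it did not pass (adjusted p up to 0.169), among them without nTreg PBS 1 (0.74, adjusted p = 0.0536).

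Counted over the 9 genes, AzaC in nTregs gave 3 higher and 0 lower calls, where 1.42% of all genes were called higher and 0.6% lower (2.02% either way). AzaC in CD4 cells gave 1 higher and 1 lower call, where 0.83% of all genes were called higher and 0.933% lower (1.76% either way). Between nTregs and CD4 cells under PBS, 1 of the 9 genes was higher and 2 were lower, where 8.01% of all genes were called (3.9% higher and 4.12% lower). With AzaC, 2 were higher (Klrk1 and Klrg1) and 1 was lower (Ctsw), where 6.75% of all genes were called (4.57% higher and 2.19% lower). The median log2 difference of the 9 genes was 0.40 with AzaC in nTregs and 0.05 in CD4 cells, against -0.04 and 0.01 over all genes. It was 0.05 between nTregs and CD4 cells under PBS and 0.21 with AzaC, against 0.03 and -0.04 over all genes. Leaving out array nTreg PBS 1 left each of these counts of calls as it was. The 9 genes were chosen with earlier results of these data known, so these counts and medians are given as a description.

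The 9 genes did not move as 1 block. Among their pairs, the highest Pearson's r over the 12 arrays was 0.77, between Klrk1 and Klrg1, and the lowest was -0.61, for Klrg1 with Ctsw and for Klrg1 with Klrb1c. These values rest on 12 arrays in 4 groups and are a description.

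Markers of CD8 T cells moved with AzaC in the sorted nTregs, where Klrg1, Nkg7 and Ctsw were higher too. Cd8a had 8.32, 8.17 and 8.24 in nTregs with AzaC, against 6.45, 6.73 and 7.39 with PBS, and both of the 2 listed CD8 markers (Cd8a and Cd8b1) were called higher. The mean of the 2 markers per array was 9.62 to 9.75 in nTregs with AzaC and 8.35 to 8.96 in nTregs with PBS, against 8.11 to 8.54 in CD4 cells with AzaC and 8.46 to 8.55 in CD4 cells with PBS. Without nTreg PBS 1, 1 of the 2 markers was called. The Cd8b1 call was lost without nTreg PBS 1 (limma adjusted p = 0.0547) or any nTreg AZA array (adjusted p up to 0.0974). The Cd8a call was kept under all 19 alternatives. Of the NK marker list, 6 of 8 genes were measured, and their mean per array was 7.42 to 7.49 in nTregs with AzaC and 7.23 to 7.42 with PBS, against 7.34 to 7.51 in CD4 cells with AzaC and 7.29 to 7.50 with PBS. Of these NK markers, Fcer1g and Eomes were called higher in nTregs with AzaC, and Ncr1 (NKp46) differed by -0.12 in nTregs and 0.26 in CD4 cells with no call. No marker was at 0, since RMA signals have no true zero. Zbtb16 (PLZF), the marker of NKT cells, differed by 0.64 in nTregs (adjusted p = 0.0532). The part of CD8, NK or NKT cells in the values of Klrg1, Nkg7 and Ctsw was not tested. In CD4 cells, where Klrd1 was lower and Nkg7 higher with AzaC, the marker Cd8a differed by 0.03 (adjusted p = 0.954) and Cd8b1 by -0.28 (adjusted p = 0.383).

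Of the 9 genes, 7 lie on chromosome 6, Nkg7 lies on chromosome 7 and Ctsw on chromosome 19. Klrb1c, Klre1, Klrd1, Klrk1, Klrc2 and Klrc1 bound or lie within a block of 26 protein-coding genes, of which 24 were measured. With AzaC in CD4 cells, 1 of the 24 was called (1.76% of all genes), and it was Klrd1. With AzaC in nTregs, 0 of the 24 were called by limma (2.02% of all genes) and 6 had an unadjusted p under 0.05, where 16.8% of all genes had one. Klrd1 was also the 1 gene of the block called in the difference between the AzaC effects and between the populations under PBS (0.203% and 8.01% of all genes). With AzaC, Klrk1 was higher and Klrb1f lower in nTregs than in CD4 cells (4.57% and 2.19% of all genes). The Klrb1f call was lost without CD4 AZA 1 (0.074), CD4 AZA 3 (0.0758), nTreg AZA 1 (0.0626) or nTreg AZA 2 (0.0578). The direct neighbours of Klrd1, Klre1 and Klrk1, had log2 differences of 0.05 and -0.27 in CD4 cells, against -1.35 for Klrd1 itself.

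**Figure D3:**
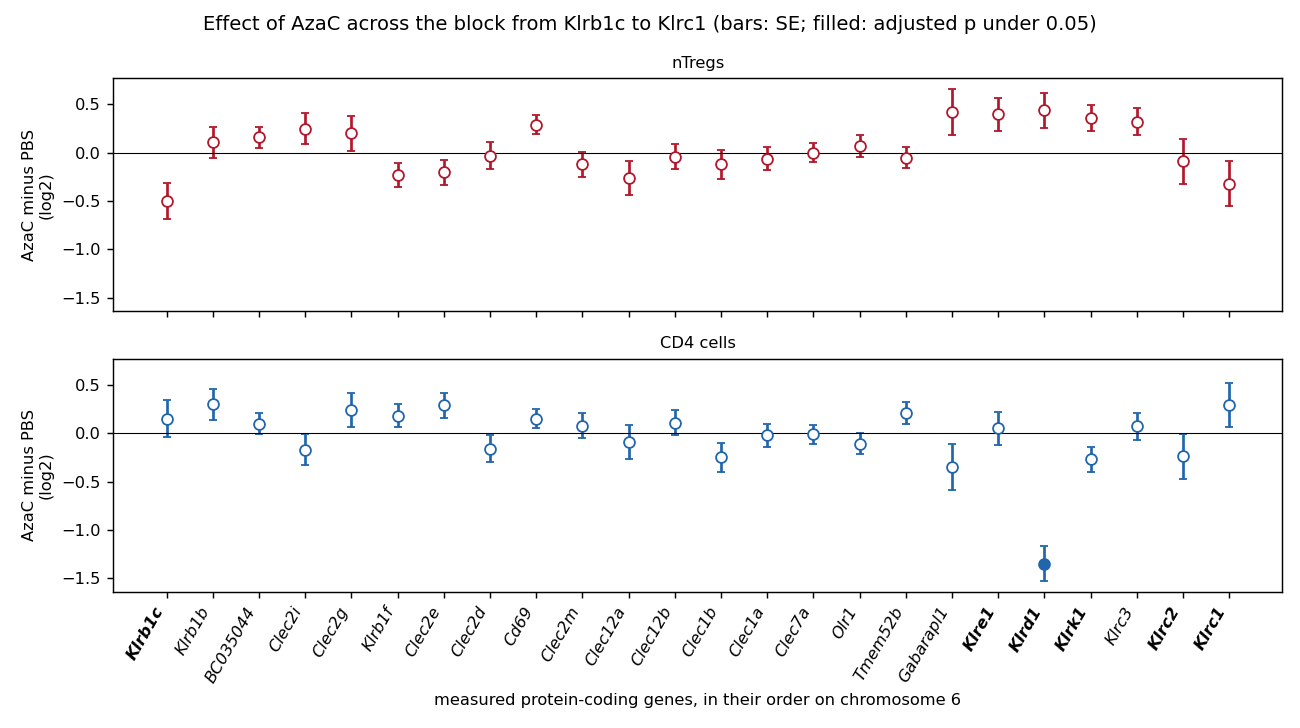
Log2 difference between AzaC and PBS (vertical axis) for the measured protein-coding genes from Klrb1c to Klrc1, in their order on chromosome 6 (horizontal axis), in nTregs above and CD4 cells below. Points are limma estimates, bars are SE (3 arrays a group), filled points have an adjusted p under 0.05 and names of the genes described here are bold. Klrd1 in CD4 cells, at -1.35, is the only filled point.

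Since AzaC acts on cytosine methylation at CG sites, the windows around the starts of these genes were read from the RefSeq promoter table (build GRCm38.p6, 250 bases before to 50 bases after the start), which matched 6 of the 9 genes. Klrd1, Klrg1 and Ctsw were not among them. Shown are Nkg7, which was higher with AzaC in both populations, Klrk1, which separated the populations with AzaC, and Klrc1, the partner of CD94 with no call. Capitals mark CG, the letters AGGTGT (a core bound by T-box factors such as Eomes and T-bet) and the letters TGTGGT (a core bound by Runx factors), each on either strand, so that ACACCT and ACCACA are marked too. The Nkg7 window is chr7:43436888-43437187 on the plus strand, that of Klrk1 is chr6:129623815-129624114 on the minus strand, and that of Klrc1 is chr6:129678924-129679223 on the minus strand.
Nkg7: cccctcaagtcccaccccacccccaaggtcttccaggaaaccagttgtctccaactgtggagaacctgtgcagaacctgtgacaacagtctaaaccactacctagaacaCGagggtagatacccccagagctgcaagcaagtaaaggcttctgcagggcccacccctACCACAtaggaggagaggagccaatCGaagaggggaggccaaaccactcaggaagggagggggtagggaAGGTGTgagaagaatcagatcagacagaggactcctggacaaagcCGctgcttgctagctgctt
Klrk1: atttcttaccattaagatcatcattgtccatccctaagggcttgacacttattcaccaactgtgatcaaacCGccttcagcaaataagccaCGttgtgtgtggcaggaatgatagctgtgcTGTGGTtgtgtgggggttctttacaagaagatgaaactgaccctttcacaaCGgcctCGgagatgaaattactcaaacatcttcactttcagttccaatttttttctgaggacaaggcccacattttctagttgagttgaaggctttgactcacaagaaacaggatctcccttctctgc
Klrc1: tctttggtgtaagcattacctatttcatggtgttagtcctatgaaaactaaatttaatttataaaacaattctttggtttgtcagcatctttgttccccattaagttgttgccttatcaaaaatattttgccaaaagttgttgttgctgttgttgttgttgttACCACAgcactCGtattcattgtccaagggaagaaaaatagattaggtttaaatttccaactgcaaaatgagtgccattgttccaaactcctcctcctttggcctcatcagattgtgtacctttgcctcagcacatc

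Nkg7 held 3 CG sites, 1 AGGTGT at position -14 from the start and 1 TGTGGT core at -83. Klrk1 held 4 CG sites and 1 TGTGGT core at -129. Klrc1 held 1 CG site at -76 and 1 TGTGGT core at -87. Of 27025 promoter windows, 1 per gene, 94.2% held a CG, with a median of 7 sites and quartiles of 3 and 21, and 38.3% held at most 4. AGGTGT was in 13.9% of these windows and TGTGGT in 16.9%. No methylation was measured on these arrays, so a match is a description of the letters and not of a site in use.

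Genes of the same pathways were followed in 7 lists. The lists were also chosen with earlier results of these data known, so their counts are given as a description. Of 12 measured Ly49 and other Klr receptors, 0 were called higher and 1 lower by limma with AzaC in nTregs (1.42% and 0.6% of all genes). In CD4 cells 0 were called (1.76% of all genes), and 0 also had an unadjusted p under 0.05 (15.2% of all genes). The lower one was Klra5 (Ly49E), at -0.59 (SE 0.13, limma adjusted p = 0.0336). Klra5 had 4.01, 4.19 and 4.30 in nTregs with AzaC, against 4.95, 4.61 and 4.71 in nTregs with PBS, so that its AzaC values lay at or near the fifth percentile of the arrays, and a filter on dim genes removed it. Its call was lost with centred arrays (adjusted p = 0.0593), in a fit of only the compared groups (adjusted p = 0.109) and without nTreg PBS 1 (adjusted p = 0.0809), nTreg PBS 3, CD4 PBS 2, CD4 AZA 3 or any nTreg AZA array (adjusted p up to 0.143). Of 17 adaptors and kinases, Fcer1g was higher and Sh2d1a (SAP, the adaptor of the SLAM receptors) was lower in nTregs with AzaC (1.42% and 0.6% of all genes). In CD4 cells 0 passed by limma (1.76% of all genes), and 3 had an unadjusted p under 0.05 (15.2% of all genes). Tyrobp (DAP12), the adaptor of activating Klr receptors, differed by 0.15 in nTregs and by 0.07 in CD4 cells. The Sh2d1a difference of -0.73 (adjusted p = 0.0308) was lost without nTreg AZA 1 (0.08), nTreg AZA 2 (0.1) or nTreg AZA 3 (0.129). Under PBS, 5 of the 17 adaptors and kinases were lower and 0 higher in nTregs than in CD4 cells (4.12% and 3.9% of all genes). Among them Ptpn6 (SHP-1, the phosphatase that inhibitory receptors recruit) stood at -1.12 (SE 0.16, limma adjusted p = 0.000489) and was kept under all 19 alternatives. The calls of Zap70, Lat, Vav1 and Plcg1 were lost under 9, 11, 3 and 5 of them. Without nTreg PBS 1, the count of lower adaptors was 3 under PBS and 3 with AzaC in CD4 cells.

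Of 12 measured genes listed as ligands of NK receptors, 0 were called by limma in nTregs with AzaC (2.02% of all genes). There, 4 had an unadjusted p under 0.05 (16.8% of all genes). In CD4 cells 1 (Cdh1) was called higher (0.83% of all genes). Of 18 other receptors shared by NK and T cells, Il12rb2 was higher and Cd7 and Tigit were lower in nTregs with AzaC (1.42% and 0.6% of all genes). Cd7 was lower in CD4 cells too (0.933% of all genes). Each of these 4 calls was lost when certain single arrays were left out. Cd7 in nTregs was lost without nTreg AZA 1, nTreg AZA 3 or nTreg PBS 3 (adjusted p up to 0.095), and Cd7 in CD4 cells without any array but CD4 PBS 3, CD4 AZA 2 or nTreg PBS 1 (up to 0.19). Tigit was lost without any array but CD4 PBS 2, CD4 PBS 3, CD4 AZA 1 or nTreg PBS 1 (up to 0.145), and Il12rb2 without any array but CD4 PBS 3 or nTreg PBS 3 (up to 0.165). Without nTreg PBS 1, 0 of the 18 were higher in nTregs with AzaC, and 3 were lower in CD4 cells with AzaC. Between the populations under PBS, 1 of the 18 was higher and 7 were lower in nTregs (3.9% and 4.12% of all genes). With AzaC, 2 were higher and 3 lower (4.57% and 2.19% of all genes). Of the lower calls under PBS, Il18rap was lost under 6 of 19 alternatives, Il12rb2 under 2, and Cd96 and Il21r under 1 each. With AzaC, Cd244a, a higher one, was lost under 5, and the remaining calls of both comparisons were kept. Tigit was higher in nTregs than in CD4 cells, by 3.51 under PBS (limma adjusted p = 5.48e-08) and by 2.99 with AzaC (adjusted p = 1.48e-07). Cd226 (DNAM-1), an activating receptor, was lower in nTregs than in CD4 cells under PBS by -0.82 (SE 0.11, adjusted p = 0.000307) and with AzaC by -0.53 (SE 0.11, adjusted p = 0.00754).

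Of 13 transcription factors of NK and cytotoxic programmes, Eomes and Bhlhe40 were higher in nTregs with AzaC (1.42% of all genes). Nfil3 was lower in CD4 cells with AzaC (0.933% of all genes). The Bhlhe40 call (1.15, adjusted p = 0.0177) was lost without nTreg AZA 1 (0.0685), nTreg AZA 2 (0.0808) or nTreg AZA 3 (0.0646), and the Nfil3 call (-0.52, adjusted p = 0.0404) was lost without any array but nTreg PBS 1 or nTreg PBS 3 (up to 0.164). Eomes, which with T-bet drives cytotoxic programmes, had 8.84, 8.63 and 8.74 in nTregs with AzaC, against 7.95, 7.83 and 7.56 with PBS, and the call held in every alternative tried. Tbx21 (T-bet) differed by 0.51 in nTregs and did not pass (adjusted p = 0.094). Under PBS, Eomes was lower in nTregs than in CD4 cells by -0.73 (adjusted p = 0.00213), as Ctsw was. With AzaC, the Eomes difference between the populations was 0.00 (SE 0.12), while Ctsw remained lower in nTregs. Between the populations under PBS, 3 of the 13 factors were higher and 5 lower in nTregs (3.9% and 4.12% of all genes). With AzaC, 4 were higher and 2 lower (4.57% and 2.19% of all genes). Of the PBS calls, Stat4 was lost under 11 of 19 alternatives, Tbx21 under 5 and Prdm1 under 3. Of those with AzaC, Bcl11b was lost under 11 and Bhlhe40 under 6, and the remaining calls were kept. Without nTreg PBS 1, 4 factors were higher and 3 lower in nTregs under PBS. Nfil3 and Tox were higher in nTregs, by 0.80 and 0.68 under PBS and by 1.13 and 0.79 with AzaC. Runx3, which drives the cytotoxic T lineage, was lower in nTregs in both conditions. It differed by -0.61 under PBS (limma adjusted p = 0.011) and by -0.81 with AzaC (SE 0.13, adjusted p = 0.00139).

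Of 22 measured granule genes other than Nkg7 and Ctsw, 3 were higher and 0 lower in nTregs with AzaC (1.42% and 0.6% of all genes). In CD4 cells 2 were higher and 1 lower (0.83% and 0.933% of all genes). Fasl in nTregs (0.91, limma adjusted p = 0.029) lost its call without any nTreg AZA array (adjusted p up to 0.112). Among the CD4 calls, Cst7 (0.61, adjusted p = 0.0373) was lost under 12 of 19 alternatives. Ctsl, the lower one (-0.83, adjusted p = 0.0388), was lost under 7. Gzmc (granzyme C) was higher in nTregs by 1.03 (SE 0.17, limma adjusted p = 0.0046), and Gzmb (granzyme B) was higher in CD4 cells by 0.77 (SE 0.11, adjusted p = 0.00275). Serpinb9, the inhibitor of granzyme B, was higher in nTregs with AzaC by 0.74 (SE 0.13, adjusted p = 0.0106), a call lost without nTreg AZA 1 (0.058) or nTreg AZA 3 (0.0593). Between the populations, 7 granule genes were higher and 0 lower in nTregs under PBS (3.9% and 4.12% of all genes). With AzaC, 10 were higher and 0 lower (4.57% and 2.19% of all genes), while Ctsw was lower in nTregs in both conditions. The Ctsl call under PBS was lost under 10 of 19 alternatives. With AzaC, Srgn lost its call under 11, Serpinb6b under 5 and Lamp1 under 4, and the remaining calls were kept. Gzmc differed by 2.21 (SE 0.17) under PBS and 3.10 (SE 0.17) with AzaC, and Rab27a, which docks lytic granules at the membrane, by 1.02 and 1.69 (SE 0.17 each). Without nTreg PBS 1, 5 granule genes were higher in nTregs with AzaC, 3 were lower in CD4 cells with AzaC, and 1 was lower in nTregs in each population comparison.

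Of 8 chemokines and cytokines, 3 were higher with AzaC in nTregs and 3 in CD4 cells (1.42% and 0.83% of all genes), and these were Tnf, Lta and Xcl1 both times. Lta in nTregs lost its call without nTreg AZA 1 (0.0866) or nTreg AZA 3 (0.0731), and Xcl1 in CD4 cells without CD4 AZA 3 (0.0986) or any CD4 PBS array (up to 0.0771). Tnf was higher by 1.05 (SE 0.16, limma adjusted p = 0.00394) in nTregs and by 1.12 (SE 0.16, adjusted p = 0.00268) in CD4 cells. Ccl5, a chemokine of NK cells and cytotoxic T cells, was higher in nTregs than in CD4 cells under PBS by 1.07 (SE 0.18, adjusted p = 0.00203) and differed by 0.01 in nTregs with AzaC. No list gene was called in the difference between the AzaC effects by limma, where 45 of all 22180 genes were called and 3871 had an unadjusted p under 0.05. Of the 100 calls among list and marker genes over all comparisons, 57 were kept under every alternative in which the gene was tested and 43 were lost under at least 1.

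**Figure D4:**
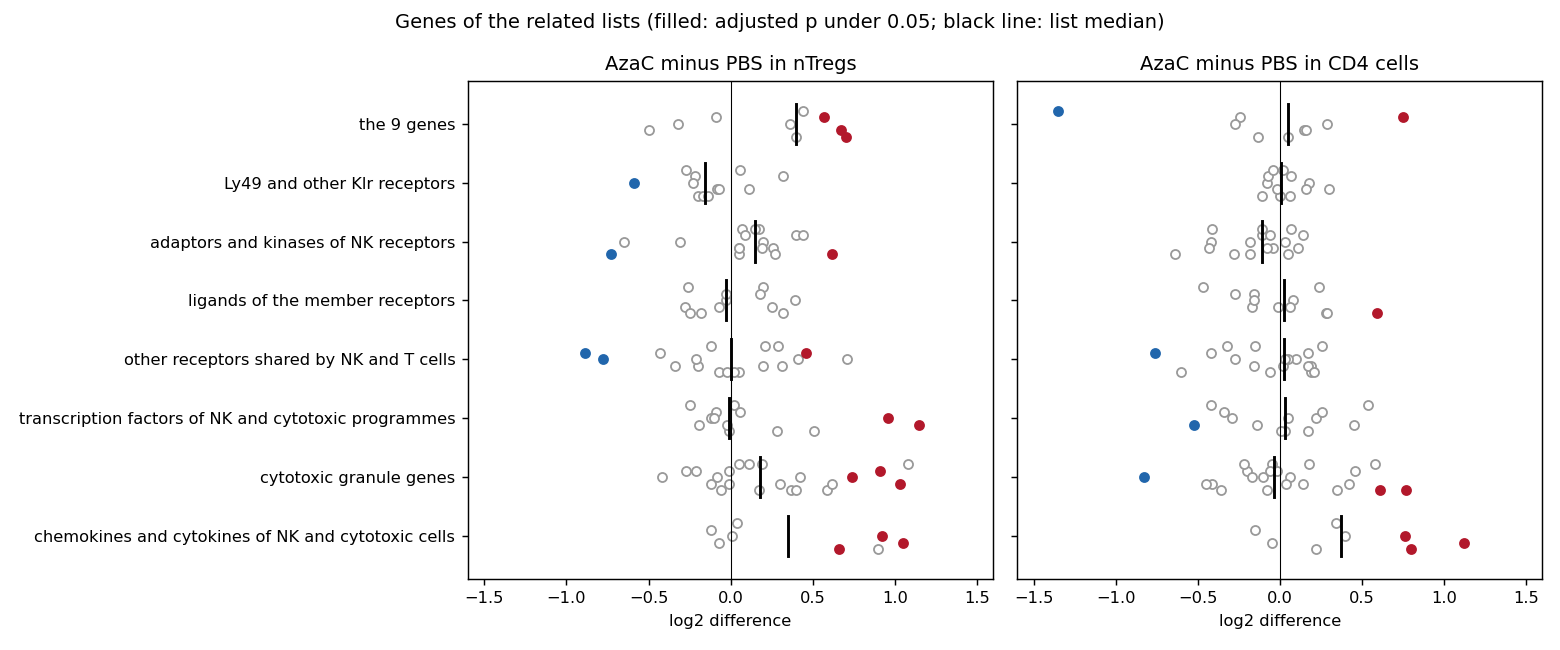
Log2 difference between AzaC and PBS (horizontal axis) for the 9 genes and for the measured genes of the 7 related lists, in nTregs on the left and CD4 cells on the right. Each point is a gene, black lines are list medians, and filled points have a limma adjusted p under 0.05. Klrd1, at -1.35, is the lowest point in CD4 cells.

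The genes whose signals followed those of the 9 genes most closely over the 12 arrays were named by Pearson's r among 16579 candidates. For Klrd1 they were Arhgap9 (r = 0.895), Sirt3 (r = 0.893) and Epas1 (r = 0.872). Epas1, which encodes the hypoxia-inducible factor HIF-2 alpha, had 8.22, 8.22 and 8.25 in CD4 cells with AzaC, against 9.23, 9.50 and 9.53 in CD4 cells with PBS, and 7.73 to 8.43 in nTregs. Like Klrd1, Epas1 was thus highest on the 3 CD4 PBS arrays. For Klrk1 the closest gene was Htra2 (r = 0.937). For Klrg1 they were Nfkbia (r = 0.983), Ccdc184 (r = 0.977) and Hbegf (r = 0.974). For Nkg7 they were Myl10 (r = 0.975), Rtp4 (r = 0.964) and Plxdc2 (r = 0.952), and for Ctsw they were Ccr7 (r = 0.971), Atp8b4 (r = 0.971) and B4galnt1 (r = 0.97). For Klrc1 the closest gene was Pabpn1l (r = 0.965), whose highest signal of 7.29 lay, like that of Klrc1, on nTreg PBS 1. Klrc2, Klre1 and Klrb1c had closest genes at r = 0.917 (Fthl17e), 0.822 (Sp6) and 0.872 (Hoxc6). These values share group means and arrays and describe likeness only.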

How the data were processed

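The deposited table holds log2 signals. Per the submitters' processing notes, the authors used RMA and Affymetrix Expression Console, with no version stated. RMA includes a background correction and quantile normalization, which can shrink shifts shared by most genes. A genome build was not given in the sources used here. Of 41345 rows, 23521 carry exactly 1 symbol in the platform annotation, 1814 carry several and 16010 are unnamed here. The brightest row per gene over the 12 arrays was kept, which left 22180 genes, and no filter on dim genes was applied. No pair of arrays was identical.

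A model with 1 mean per group was fitted with limma 3.58.1 (lmFit and eBayes) in R 4.3.3, with 8 residual degrees of freedom. Every p-value is limma's, adjusted by Benjamini-Hochberg over all genes, with a threshold of 0.05. The number of arrays limits the precision: the median SE was 0.13, and 0.18 for the difference between the AzaC effects. The script was tested on simulated data. Tables were made with Python 3.11.15.

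Same-numbered arrays did not deviate together (correlations of -0.1 to 0.19), so the numbers were not taken as pairs. Genes named besides the 9 were up to 3 called genes of the smallest p per list and comparison, plus fixed adaptors, ligands, factors and markers, and the 3 genes of highest r for each of the 9 genes. The 9 genes, the lists and the alternatives were chosen with earlier results of these data known. The alternatives were array centring, a dim filter at a mean of 5, the mean over a gene's rows, limma array weights, robust moderation with a variance trend, only the compared groups, a replicate block, and each array left out. Epas1, Pabpn1l and the block neighbours were described further after their values were seen.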

Additional observations from a re-analysis of the deposited data

Results flagged for a closer look

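The effect of AzaC on Klrd1 differed between the populations by a limma test of the difference itself, at 1.78 (SE 0.26, adjusted p = 0.0178) for nTregs minus CD4 cells. The effect was 0.44 in nTregs (SE 0.18, 2 of 3 AzaC arrays at or above 7.29 and 1 at 7.24, PBS arrays at 6.67 to 7.29) and -1.35 in CD4 cells (SE 0.18, all 3 AzaC arrays below all PBS arrays). Of all 22180 genes, 0.203% were called in this test. The difference was 1.82 (adjusted p = 0.0522) without CD4 AZA 1 and 1.67 (adjusted p = 0.0539) without nTreg AZA 1, so neither passed. Groups of 3 arrays were not tested for an outlying value of a gene.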

How the results depend on the processing

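The calls of Klrd1 in CD4 cells and under PBS, and of Klrg1 and Ctsw between the populations in both conditions, were kept under all 19 alternatives. That of Klrk1 between the populations with AzaC was kept under the 18 in which it was tested, since the filter on dim genes removed Klrk1 and left 2 of the 9 genes called there, against 3 in the report. Among all results of the 9 genes under the alternatives, 787 kept direction and side of the threshold, 20 lost a call, 8 gained one and 21 turned direction, and the cause was not tested unless stated. The number of the 9 genes called for the difference between the AzaC effects was 2 with centred arrays, 2 without dim genes, 3 with array weights and 2 with robust moderation. Ctsw was the gene gained each time (adjusted p = 0.0272, 0.0405, 0.00865 and 0.0432), joined under array weights by Klrg1 (0.0219). In a fit of only the compared groups, which has fewer arrays, 0 of the 9 genes were called by limma in nTregs with AzaC (Ctsw 0.0522, Klrg1 0.0747 and Nkg7 0.173).

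Over all genes, calls for the difference between the effects numbered 89 with centred arrays and 401 with array weights, against 45 in the report. Array weights gave 1290 calls in nTregs with AzaC, 1291 in CD4 cells and 3500 between the populations with AzaC, against 448, 391 and 1498. Only the compared groups gave 125 in nTregs with AzaC, 648 between the populations under PBS and 2350 with AzaC, against 448, 1777 and 1498. The share of higher calls moved with centring to 82.4% in nTregs, 27.3% in CD4 cells, 92.1% for the difference between the effects and 29.2% under PBS, against 70.3%, 47.1%, 71.1% and 48.6%. Array weights gave 59.5% in nTregs, 60.1% for the difference between the effects and 57.3% between the populations with AzaC (67.6% in the report).

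With each array left out in turn, 1 to 3 of the 9 genes were called in nTregs, 1 to 2 in CD4 cells and 0 to 2 for the difference between the effects. The count was 1 in nTregs without nTreg PBS 3 or any nTreg AZA array, and 0 for the difference without CD4 AZA 1 or nTreg AZA 1. Over all genes the ranges were 186 to 447, 164 to 1044 and 9 to 69, and between the populations 1042 to 1862 under PBS and 896 to 2467 with AzaC. The highest counts in CD4 cells, for the difference and with AzaC came without nTreg PBS 1.

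All 21 turned differences were uncalled. With centred arrays they were -0.03 for Klre1 with AzaC in CD4 cells, and -0.04 for Klrc2 and -0.04 for Nkg7 between the populations under PBS. With array weights they were 0.10 for Klrc2 in nTregs, and -0.01 for Klrc2 and -0.11 for Nkg7 under PBS. With single arrays left out, the AzaC effect ranged from -0.29 to 0.13 for Klrc2 in nTregs, and from -0.12 to 0.24 for Klre1 and -0.07 to 0.30 for Klrb1c in CD4 cells. The difference between the effects ranged from -0.07 to 0.37 for Klrc2. Between the populations under PBS the ranges were -0.17 to 0.28 for Klrc2, -0.09 to 0.08 for Klre1, -0.02 to 0.26 for Klrb1c and -0.10 to 0.14 for Nkg7.

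With the replicate number as a block, limma called 3, 2, 1, 3 and 3 of the 9 genes in the 5 comparisons, the same numbers as without it. Klrd1 had 1.78 (adjusted p = 0.0124) for the difference between the effects under the block, and the counts over all genes were 451 in nTregs and 380 in CD4 cells. The number is not said to pair the arrays. Signals near the fifth percentile, such as those of Klrc2, limit what a difference can show.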

Other observations

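A further array row is shared by Klrb1a and Klrb1c and was left out of the comparisons. Its signal averaged 4.84 ± 0.28 in nTregs with AzaC and 4.86 ± 0.10 in nTregs with PBS, against 5.07 ± 0.22 in CD4 cells with AzaC and 5.13 ± 0.34 in CD4 cells with PBS (SD, n = 3 arrays each).

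Among the marker lists, all 5 Treg markers were called higher in nTregs than in CD4 cells under PBS and with AzaC, and the mean of the 5 per array was 11.96 to 12.06 in nTregs with AzaC and 11.62 to 11.83 in nTregs with PBS, against 10.44 to 10.49 in CD4 cells with AzaC and 10.02 to 10.06 in CD4 cells with PBS. Of the 4 measured B cell markers, Cd79b was higher in nTregs than in CD4 cells under PBS (0.80, limma adjusted p = 0.00691) and with AzaC (1.08, adjusted p = 0.000716). Of the 5 myeloid markers, 1 was lower in nTregs with AzaC, and of 2 measured gamma-delta T cell markers 0 were called by limma in any comparison.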
